A study of Homo sapiens with 15 samples.

Results

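The genes of the cytosolic ribosomal proteins, the protein part of the ribosomes that translate nuclear-encoded mRNA, were described in 5 human neuroblastoma cell lines. They were chosen by symbol alone, as genes named RPL, RPS or RPLP with a number and at most 1 suffix letter A, X or L, and each was read from the probe set with the highest mean intensity among those naming that gene only. This gave 71 of 18244 genes, 25 of the small and 46 of the large ribosomal subunit, measured by 198 probe sets in all. Of these, 69 passed the filter on dim genes (highest line mean at or above an intensity of 80.6, the median of all values), and RPL3L and RPL10L did not. RPSA and other ribosomal protein genes without a matching probe set were not analysed here.

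A ribosome holds a single copy of most of its proteins, and vertebrate cells are known to make them in matched amounts. Most ribosomal protein mRNAs begin with a terminal oligopyrimidine (TOP) tract, a cytosine followed by a run of pyrimidines, through which LARP1 and the mTOR pathway control their translation as a group. Several members have paralogues of narrower use: RPL39L and RPL10L are best known from the testis and RPL3L from heart and skeletal muscle, while RPS27L is a target gene of p53. MYC family proteins are known activators of ribosome production, and the title of the series names MYCN, the MYC gene that is amplified in part of neuroblastomas.

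The annotated starts of members whose values are given later are shown to place the paralogues beside their partners. Each run is the sense strand from 15 bases before to 15 bases from the annotated start on, taken from RefSeq promoters of GRCh38.p14, with the TOP tract in capitals where the start is a C followed by at least 4 pyrimidines.
RPL39 (chrX:119791616-119791645, minus strand): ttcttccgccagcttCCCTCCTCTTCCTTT
RPL10 (chrX:154398362-154398391, plus strand): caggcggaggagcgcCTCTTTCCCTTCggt
RPL10L (chr14:46651767-46651796, minus strand): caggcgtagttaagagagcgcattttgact
RPL3 (chr22:39319609-39319638, minus strand): gtaaggccgaccggcctctaccggcgggat
RPS27 (chr1:153990747-153990776, plus strand): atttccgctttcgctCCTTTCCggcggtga
RPS27L (chr15:63157463-63157492, minus strand): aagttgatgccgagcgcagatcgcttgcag
RPS3 (chr11:75399503-75399532, plus strand): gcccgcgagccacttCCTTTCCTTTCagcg
RPL14 (chr3:40457324-40457353, plus strand): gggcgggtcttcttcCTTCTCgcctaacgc
RPL22 (chr1:6199581-6199610, minus strand): tagttcgctcacctcCCTTTCTaactccgc
RPL35A (chr3:197950175-197950204, plus strand): cggcggggcctcgtcCTTCTCTTaccgcca
RPS26 (chr12:56041903-56041932, plus strand): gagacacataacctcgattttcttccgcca
RPL10 and RPS27 carry a tract at the start and their paralogues RPL10L and RPS27L do not, while RPL3, the partner of RPL3L, and RPS26 have none at these starts. Of the 59 members with a listed promoter, 42 (71.2%) had a TOP tract at a listed start, against 1362 of 27246 other genes (5.0%) and 6 of 66 mitochondrial ribosomal protein genes (9.09%). Of 23 other genes listed for TOP mRNAs, 15 had a listed promoter and 13 of those a tract (86.7%). The window from 250 bases before to 50 after the start was also searched on both strands for CACGTG, the E-box that MYC family proteins bind, and for CCGGAAG, a site of ETS factors. CACGTG stood in 4 of the 59 member promoters (6.78%) and in 8.78% of the other genes, and CCGGAAG in 22 members (37.3%) and in 12.1% of the others. A match describes letters in the window and was not tested against binding.

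NGP, BE(2)-C and KELLY are MYCN-amplified lines, and SK-N-AS and SH-SY5Y are lines without MYCN amplification, from general knowledge of these lines, as the labels give only the line. BE(2)-C and SH-SY5Y are clonal sublines. All 5 were grown untreated in DMEM with 10% serum, and total RNA of 3 samples per line was hybridised to 1 array each, and ERCC spike-in RNA had been put into the lysates of counted cells. The labels number the samples and name no separate cultures, so each p-value reflects only how far these samples spread, which may be technical. The values are the authors' deposited intensities on a linear scale, tested as log2(intensity + 1), so that folds of dim genes are understated. They are given as deposited and on centred arrays, where each array's median log2 value over the 12721 tested genes was subtracted. A difference was called at an adjusted p under 0.05 (limma, Benjamini-Hochberg over all tested genes) and at least 1 on the log2 scale.

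The median intensity of all probe sets was 76.8 ± 2.98 in NGP, 103 ± 0.379 in BE(2)-C, 68.3 ± 1.37 in KELLY, 123 ± 3.23 in SK-N-AS, with 54.4 ± 2.65 in SH-SY5Y (SD, n = 3 each). Over the tested genes, the lowest correlation between replicates was 0.993 and the highest between lines 0.892. Of 7 neuroblastoma markers 6 had a probe set, and all 6 lay above the filter in every line, though DBH in SK-N-AS (96.0) and TH in SH-SY5Y (91.1) were close to it. Of 11 markers of other cell types with a probe set, 2 lay above the filter in NGP, 5 in BE(2)-C, 0 in KELLY, 7 in SK-N-AS, with 0 in SH-SY5Y. The filter is the same intensity on all arrays, so these counts also move with an array's brightness, and the 5 in BE(2)-C averaged 84.1 to 117. The summed intensity of the 11 markers was 9699 to 10759 in SK-N-AS and at most 792 in any other line. KRT18, a keratin of simple epithelia, made up 8602 of it, and the other 10 markers summed to 1634 to 1724 in SK-N-AS and to at most 733 elsewhere. The part of this in the low values of SK-N-AS given later was not tested.

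Ribosomal protein genes were among the brightest genes of every line, and they moved with the arrays as a whole. Of the 71 members, 64 lay in the top 1% of genes by mean intensity and 67 in the top 5%. The median member intensity was 15249 ± 924 in NGP, 20386 ± 468 in BE(2)-C, 13314 ± 871 in KELLY, 21603 ± 1477 in SK-N-AS, with 10804 ± 981 in SH-SY5Y (SD, n = 3 each), which is the order of the arrays' overall medians. RPS2, a small-subunit protein at the mRNA entry, was the brightest member on average, with 21822 in NGP, 30465 in BE(2)-C, 19983 in KELLY, 31572 in SK-N-AS, with 14872 in SH-SY5Y. RPL32 and RPL37A, both of the large subunit, followed in mean intensity. These probe sets stood close to the brightest of the whole array, which averaged 22929 in NGP, 31278 in BE(2)-C, 20298 in KELLY, 33910 in SK-N-AS, with 16160 in SH-SY5Y. In lysates of whole cultures, fewer cells of a kind and less RNA per cell cannot be told apart.

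On centred arrays the order turned. The members' median was 5.84 ± 0.06 in NGP, 5.64 ± 0.01 in BE(2)-C, 5.94 ± 0.06 in KELLY, 5.52 ± 0.07 in SK-N-AS, with 5.86 ± 0.06 in SH-SY5Y on the log2 scale (SD, n = 3 each), so the lines with the brightest arrays had the lowest centred medians. The 71 members took 10.1% ± 0.362 of the summed intensity over genes in NGP, 8.71% ± 0.135 in BE(2)-C, 10.9% ± 0.373 in KELLY, 8.23% ± 0.283 in SK-N-AS, with 10.2% ± 0.366 in SH-SY5Y. The lowest NGP, KELLY or SH-SY5Y array (9.76%) stood above the highest BE(2)-C or SK-N-AS array (8.84%). The share is a ratio within each array and does not move with the scaling of an array. The order of the members' deposited medians does move with it, while centring removes nearly all of such scaling.

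**Figure D1:**
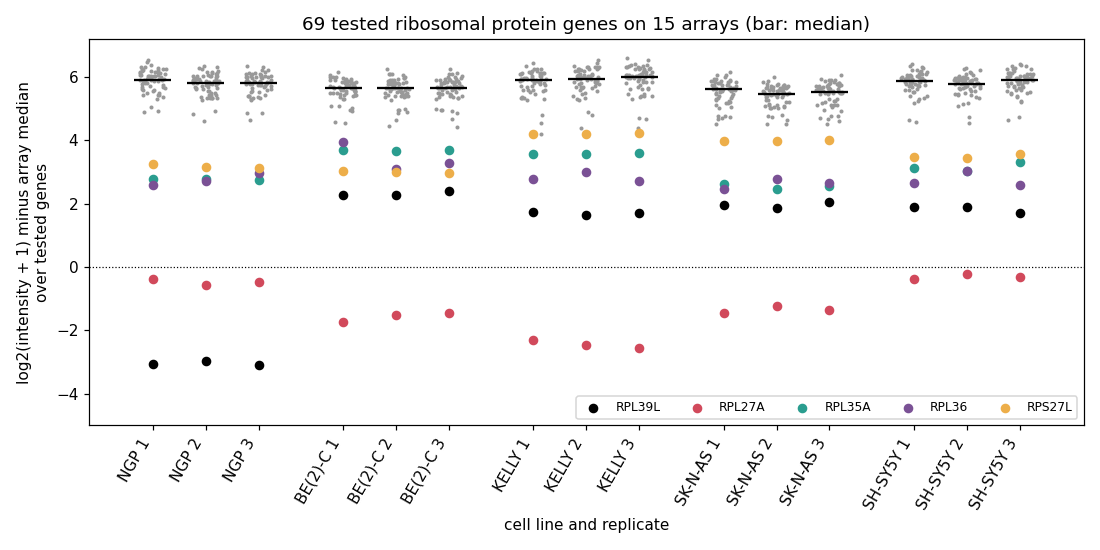
Centred log2 level (log2(intensity + 1) minus the array median over tested genes, vertical axis) of the 69 tested ribosomal protein genes on each of the 15 arrays (horizontal axis); grey points are members, bars their median and coloured points 5 named members. Member medians average between 5.52 in SK-N-AS and 5.94 in KELLY, while RPL39L drops to a mean of -3.04 on the 3 NGP arrays and RPL27A stays below 0 on all arrays.

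On the deposited scale few members passed the call between lines except where SH-SY5Y was set against the brightest lines. In SK-N-AS minus SH-SY5Y, 38 of 69 tested members were called higher and 0 lower, where 64.2% of all tested genes were higher and 4.28% lower. In BE(2)-C minus SH-SY5Y, 24 were higher and 0 lower, beside 53.6% and 2.48% of all genes. In KELLY minus SK-N-AS, 0 were higher and 8 lower (5.27% and 49.1% of all genes), and in BE(2)-C minus KELLY, 6 were higher and 0 lower (39.2% and 3.34%). In these 4 pairs the members' share was below that of all genes in the direction most genes took. With the adjusted p alone it was above, at 100% of the members beside 87.6% of all genes higher in SK-N-AS minus SH-SY5Y, 98.6% beside 88.9% higher in BE(2)-C minus SH-SY5Y, 98.6% beside 82.3% lower in KELLY minus SK-N-AS and 98.6% beside 83.6% higher in BE(2)-C minus KELLY. The members thus moved with the arrays by smaller steps. NGP had 0 members higher and 3 lower against BE(2)-C (5.13% and 26.3% of all genes), 2 higher and 1 lower against KELLY (11.7% and 4.47%), and 0 higher and 3 lower against SK-N-AS (7.45% and 36.5%). It had 0 higher and 1 lower against SH-SY5Y (18.8% and 4.17%). BE(2)-C had 0 higher and 1 lower against SK-N-AS (9.79% and 15.8%), and KELLY 0 higher and 1 lower against SH-SY5Y (10.4% and 5.32%). For 8 of the 10 pairs the median member difference was smaller in size than the median over all tested genes, for example 1.04 against 1.23 in SK-N-AS minus SH-SY5Y, 0.61 against 0.81 in BE(2)-C minus KELLY and -0.71 against -0.98 in KELLY minus SK-N-AS. NGP minus SH-SY5Y (0.53 and 0.52) and KELLY minus SH-SY5Y (0.31 and 0.25) were the exceptions. Over all 10 pairs, 49 members were called in at least 1 (71.0%), beside 91.4% of all tested genes.

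Centring removed nearly all of these calls. On centred arrays 5 of 69 members were called in at least 1 of the 10 pairs (7.25%), against 54.6% of all tested genes. The contrast changed with the choice of probe sets. Without those of the kinds _s_at and _x_at, which mark sequence shared with other transcripts, 15 of 32 tested members were called (46.9%, against 54.6% of the genes then tested). With the mean of all probe sets of a gene it was 10 of 69 (14.5%, against 48.9%). The parts of probe set kind, brightness and the smaller number of members in this were not tested. The 5 members were RPL27A, RPL35A and RPL39L of the large subunit and RPS26 and RPS27L of the small subunit. Counted in either direction, NGP had 2 members called against BE(2)-C, 4 against KELLY, 1 against SK-N-AS and 1 against SH-SY5Y, beside 19.3%, 14.1%, 30.1% and 16.2% of all genes. BE(2)-C had 1 each against KELLY, SK-N-AS and SH-SY5Y (17.4%, 25.1% and 16.5%). KELLY had 2 against SK-N-AS (29.1%) and 1 against SH-SY5Y (14.9%), and SK-N-AS minus SH-SY5Y had 1 (25.9%). The SD of the 5 centred line means had a median of 0.20 over the tested members, against 0.44 over all tested genes, 0.34 over 1206 bright genes outside the members and 0.34 over 73 mitochondrial ribosomal protein genes. Replicates of a line varied by a median SD of 0.07 for the members and 0.10 for all tested genes. In 47 members the SD of line means was under 0.25, and in 5 it was over 0.4, which were the same 5 that were called.

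The even spread went with brightness. Among probe sets with a mean log2 value of 13 or more, the median SD of centred line means was 0.198 for 119 probe sets of 62 members and 0.208 for 129 probe sets of other genes. From 10 to 13 it was 0.410 for 20 member probe sets and 0.377 for 3419 others, and under 10 it was 0.494 for 42 member probe sets and 0.432 for 25834 others. Members and other genes thus had similar medians within each range, and the brightness ranges differed by more than either. Of 53 members with at least 2 probe sets above the filter, 42 had a larger SD over lines in the dimmest of them than in the probe set used. Of the probe sets used, 37 carry the suffix _x_at and 21 _s_at, and ribosomal protein genes have many processed pseudogenes, so a value may mix several transcripts.

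**Figure D2:**
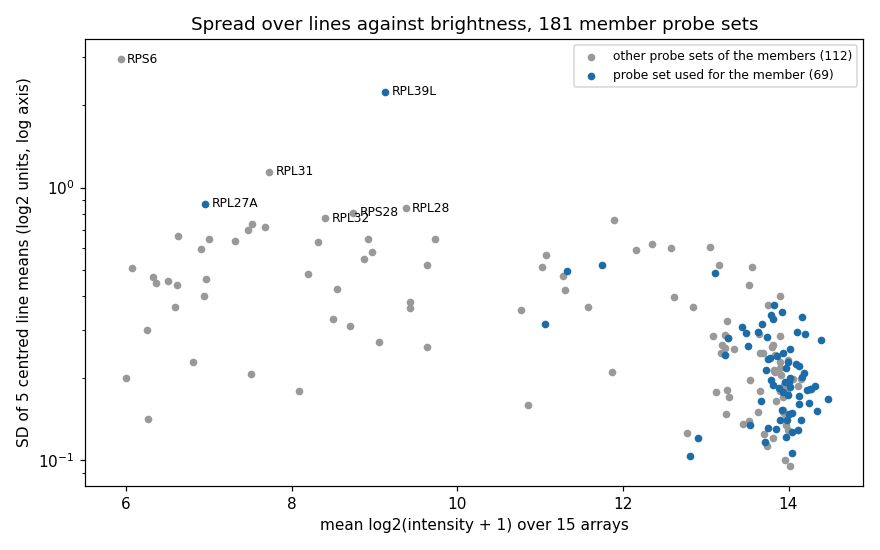
SD of the 5 centred line means (log2 units, log axis) against mean log2(intensity + 1) over 15 arrays for 181 member probe sets above the filter; blue points are the 69 probe sets used and grey points the other 112. The median SD is 0.198 at a mean of 13 or more and 0.494 under 10, and RPL39L and RPL27A are the 2 used probe sets under 10.

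Each line was then set against the mean of the other 4 on centred arrays, where limma's adjusted p alone made the call. In SK-N-AS 59 of 69 tested members were lower and 4 higher, beside 46.1% lower and 36.0% higher among all tested genes, with a median of -0.29 for the members and -0.10 for all genes. In KELLY 56 were higher and 4 lower, beside 41.1% and 34.1% of all genes, with medians of 0.25 and 0.07. In BE(2)-C 42 were lower and 7 higher (40.6% and 36.7% of all genes), with a median of -0.13. NGP had 37 higher and 9 lower (38.5% and 35.9%) and a median of 0.11, and SH-SY5Y 34 higher and 3 lower (37.9% and 32.3%) and a median of 0.10. The 5 contrasts share all arrays, so a low value in SK-N-AS raises the other lines' differences.

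The subunits had similar medians in every line. In SK-N-AS the 25 small-subunit members had a median of -0.28, with 23 lower and 1 higher, and the 44 tested large-subunit members a median of -0.29, with 36 lower and 3 higher. In KELLY the medians were 0.24 for the small and 0.25 for the large subunit, and in BE(2)-C -0.13 and -0.14. Among 119 genes outside the members in the top 1% by intensity, the median was -0.21 in SK-N-AS (76 lower, 17 higher), 0.16 in KELLY (73 higher, 21 lower) and 0.02 in BE(2)-C (38 higher, 37 lower). The 21 tested genes of other TOP mRNAs, among them translation elongation factors, had medians of 0.23 in NGP (15 higher, 1 lower), -0.18 in BE(2)-C (2 higher, 14 lower), 0.32 in KELLY (18 higher, 3 lower), -0.25 in SK-N-AS (5 higher, 16 lower) and -0.05 in SH-SY5Y (6 higher, 8 lower). The 73 mitochondrial ribosomal protein genes, which serve translation inside mitochondria, stood the other way, with -0.05 in NGP, 0.22 in BE(2)-C, -0.08 in KELLY, 0.18 in SK-N-AS, with -0.23 in SH-SY5Y. In SK-N-AS 41 of them were higher and 13 lower, and in SH-SY5Y 9 higher and 50 lower. Differences between these lists were not tested.

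**Figure D3:**
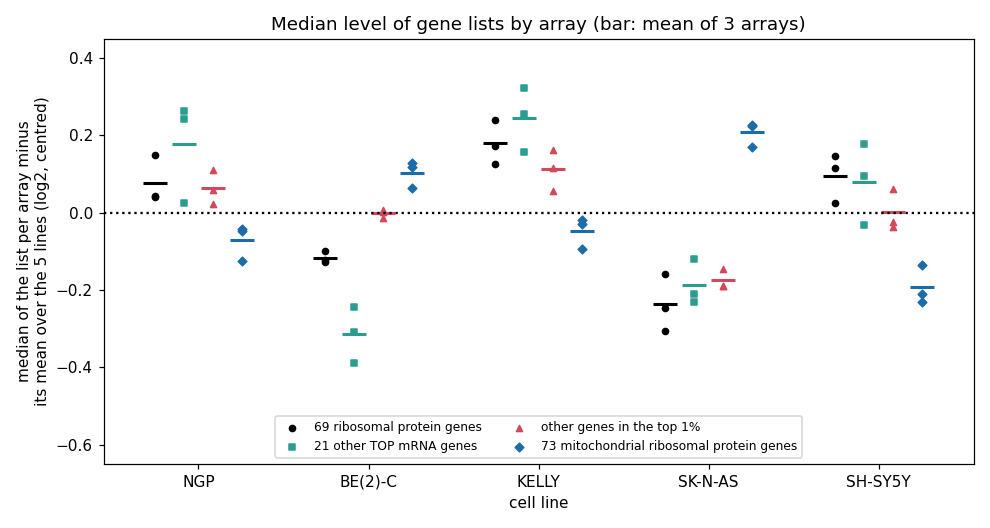
Median centred log2 level of 4 gene lists on each array minus the list's mean over the 5 lines (vertical axis), by cell line; points are arrays and bars the mean of 3 arrays. The 69 ribosomal protein genes (centred medians 5.94 in KELLY and 5.52 in SK-N-AS) and the 21 other TOP mRNA genes are high in KELLY and low in BE(2)-C and SK-N-AS, and the 73 mitochondrial ribosomal protein genes (2.05 in KELLY and 2.31 in SK-N-AS) are high in SK-N-AS.

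RPL39L, the paralogue of RPL39 at the peptide exit tunnel, was below the filter in NGP and above it in the other lines. Its intensities were 30.96, 34.5 and 28.9 on the NGP arrays. They were 2044, 1950 and 2081 in BE(2)-C, 706, 673 and 722 in KELLY, 1796, 1646 and 2026 in SK-N-AS, with 703, 656 and 620 in SH-SY5Y. No NGP array came near any other array. As the NGP values have only a bound, they were set to the intensity of 80.6, and NGP was then at least 16.2-fold lower than BE(2)-C, at least 12.6-fold lower than SK-N-AS, at least 11.6-fold lower than SH-SY5Y and at least 10.6-fold lower than KELLY on centred arrays. The difference fitted to the values as they stand was -4.99 from the mean of the other 4 lines (limma, adjusted p = 1.09e-20), against -3.65 with the bound. With the probe sets used, RPL39L was the only tested member to mark a line on centred arrays, with all 4 pairs of NGP called lower. Of all tested genes 1.35% marked NGP as lower and 19.0% marked any line. Without _s_at and _x_at probe sets 6 of 32 tested members marked a line. The 4 other lines had centred levels of 1.70 ± 0.05 in KELLY, 1.83 ± 0.12 in SH-SY5Y, 1.96 ± 0.09 in SK-N-AS and 2.31 ± 0.07 in BE(2)-C (SD, n = 3 each). In that order KELLY did not pass against SH-SY5Y (adjusted p = 0.0946), nor SK-N-AS against SH-SY5Y (adjusted p = 0.0965), and BE(2)-C passed against SK-N-AS (difference 0.36, adjusted p = 1.29e-04). RPL39L was measured by 1 probe set of the _a_at kind.

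RPL39 itself did not follow RPL39L. It stood at 13482 ± 358 in NGP, 20434 ± 835 in BE(2)-C, 13083 ± 934 in KELLY, 22026 ± 1129 in SK-N-AS, with 10273 ± 454 in SH-SY5Y (intensity, SD, n = 3 each). On centred arrays NGP differed from the mean of the other 4 by -0.06 (adjusted p = 0.134), a difference that did not pass.

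RPL3L and RPL10L, the muscle and testis paralogues of RPL3 and RPL10, were dim throughout. RPL3L ranged over line means from 32.0 in SH-SY5Y to 53.1 in SK-N-AS, and RPL10L from 35.1 in SH-SY5Y to 59.7 in SK-N-AS, all under the filter, so neither was tested. Their partners were bright, with 14306 ± 1125 in NGP, 17213 ± 660 in BE(2)-C, 13061 ± 983 in KELLY, 19067 ± 1444 in SK-N-AS, with 8819 ± 1116 in SH-SY5Y for RPL3. The line means of RPL10 were lowest in SH-SY5Y at 11212 ± 1260 and highest in SK-N-AS at 24969 ± 1726, and its centred differences lay between -0.17 in SK-N-AS and 0.18 in KELLY.

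RPS27L differed between lines in another order. Its intensities were 2515, 2439 and 2223 in NGP, 3396, 3210 and 3071 in BE(2)-C, 3830, 3972 and 4167 in KELLY, 7250, 7065 and 7952 in SK-N-AS, with 2126, 1912 and 2279 in SH-SY5Y. The SK-N-AS arrays were all above the rest, and NGP and SH-SY5Y overlapped. On centred arrays it was highest in KELLY, 0.80 above the mean of the other 4 (SE 0.04, limma, adjusted p = 2.40e-12), and next in SK-N-AS (0.52, adjusted p = 3.80e-10). It was lowest in BE(2)-C (-0.73, adjusted p = 6.82e-12) and NGP (-0.50, adjusted p = 1.07e-09). The centred differences of its partner RPS27 lay between -0.29 in SK-N-AS and 0.22 in KELLY.

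RPL22, a large-subunit protein, and RPL22L1, its paralogue outside the symbol rule, are given together, RPL22L1 being picked after its values were seen from a list of 5 such genes on the arrays. RPL22 had 17972 ± 1143 in NGP, 22975 ± 114 in BE(2)-C, 16141 ± 1251 in KELLY, 20684 ± 1811 in SK-N-AS, with 12326 ± 1475 in SH-SY5Y. RPL22L1 had 2062 ± 119 in NGP, 7833 ± 714 in BE(2)-C, 3393 ± 109 in KELLY, 11297 ± 2377 in SK-N-AS, with 1667 ± 191 in SH-SY5Y (SD, n = 3 each). On centred arrays SK-N-AS was lower than the other 4 lines for RPL22 (-0.58, limma, adjusted p = 4.32e-09) and higher for RPL22L1 (0.98), and NGP was higher for RPL22 (0.19) and lower for RPL22L1 (-1.04). In BE(2)-C the differences were -0.13 and 0.60, and in KELLY both were above 0 (0.37 and 0.24). In SH-SY5Y RPL22 differed by 0.15 and RPL22L1 by -0.78.

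**Figure D4:**
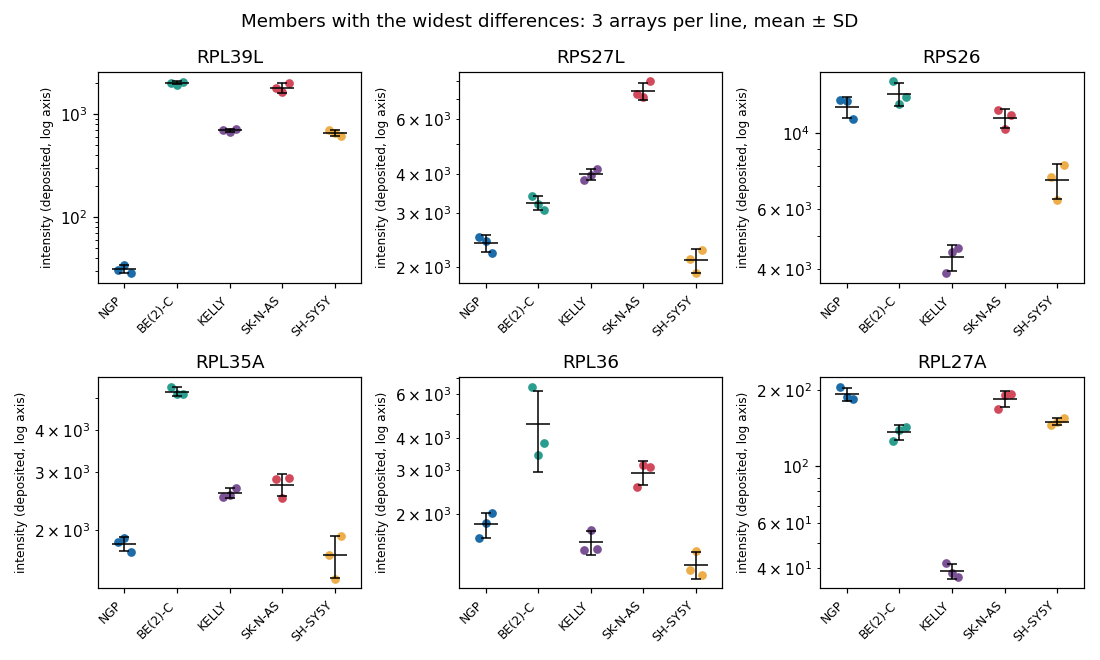
Deposited intensity (vertical axis, log scale) of 6 members with wide differences in the 5 lines; points are the 3 arrays of a line, with the mean and SD. RPL39L averages 31.5 in NGP against 660 to 2025 elsewhere, RPS26 and RPL27A are lowest in KELLY, and RPL36 has 1 BE(2)-C array at 6443 apart from 3447 and 3839.

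The genes with a pattern most like RPL39L were sought among 2000 tested genes with an SD of centred line means of at least 1, by Pearson's r over the 5 line means. They were SNX9 (0.999), POPDC3 (0.997), TMEM42 (0.996), SH3BGRL (0.996) and ENKD1 (0.993), correlations over 5 points that rest on the low NGP value. SNX9 had 20.2 ± 3.99 in NGP, 753 ± 63.5 in BE(2)-C, 258 ± 8.03 in KELLY, 758 ± 66.6 in SK-N-AS, with 264 ± 70.4 in SH-SY5Y. SH3BGRL had 17.9 ± 3.98 in NGP and 572 ± 60.3 to 1544 ± 98.0 in the other lines. Of these, TMEM42 is on chromosome 3, as is RPL39L. Of the 6 tested genes next to RPL39L on chromosome 3, 3 on each side, RFC4 and ST6GAL1 lay above the filter in NGP. RFC4, a clamp loader subunit of DNA replication, differed by -0.13 in NGP from the other lines, and ST6GAL1, a sialyltransferase, by 1.31. ADIPOQ, RTP1, RTP4 and SST had NGP means of 79.1, 66.5, 25.7 and 19.8, all under the filter, so a low NGP value could not be read from them. SST, the gene of somatostatin, had a fitted NGP difference of -1.13 (limma, adjusted p = 1.89e-05), with 517 in KELLY and at most 36.1 in any other line.

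RPS26, a small-subunit protein near the mRNA exit, was low in KELLY. Its intensities were 12466, 12380 and 10962 in NGP, 14143, 12116 and 12719 in BE(2)-C, 3890, 4482 and 4625 in KELLY, 11659, 10257 and 11279 in SK-N-AS, with 7449, 6367 and 8039 in SH-SY5Y. The 3 KELLY arrays lay below all others on the deposited scale. On centred arrays KELLY differed by -0.76 from the mean of the other 4 (SE 0.05, limma, adjusted p = 5.07e-10) and NGP by 0.70 (adjusted p = 1.48e-09), and NGP minus KELLY was 1.16. The second probe set of RPS26 also had its lowest mean in KELLY (175), with 736 in NGP, 676 in BE(2)-C, 871 in SK-N-AS, with 349 in SH-SY5Y.

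RPL35A, a large-subunit protein whose gene is affected in some Diamond-Blackfan anaemia, was high in BE(2)-C on the deposited scale. It had 1844, 1892 and 1718 in NGP, 5427, 5155 and 5148 in BE(2)-C, 2515, 2560 and 2686 in KELLY, 2851, 2494 and 2879 in SK-N-AS, with 1679, 1424 and 1921 in SH-SY5Y. On centred arrays it was higher in BE(2)-C (0.67, SE 0.05, limma, adjusted p = 1.25e-09) and KELLY (0.54, adjusted p = 2.57e-08) and lower in SK-N-AS (-0.75, adjusted p = 1.45e-10) and NGP (-0.47, adjusted p = 1.30e-07). Its dimmer probe set disagreed for BE(2)-C, with a centred difference of -0.66 there against 0.93 in KELLY, so the high BE(2)-C value rests on 1 probe set.

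RPL27A, of the large subunit, had 1 probe set that was dim for a member. Its intensities were 205, 187 and 183 in NGP, 126, 139 and 143 in BE(2)-C, 41.9, 38.2 and 36.7 in KELLY, 168, 191 and 192 in SK-N-AS, with 146, 150 and 154 in SH-SY5Y. KELLY was below all other arrays and under the filter, so its value is only a bound. On centred arrays the fitted KELLY difference from the mean of the other 4 was -1.52 (limma, adjusted p = 4.09e-12), and it was -0.48 with KELLY set to the intensity of 80.6, which makes KELLY at least 1.40-fold lower than that mean. With this bound BE(2)-C minus KELLY was -0.17 and KELLY minus SK-N-AS -0.06, so the bound does not place KELLY below BE(2)-C on centred arrays. With the KELLY values as they stand, SH-SY5Y differed by 1.16 (adjusted p = 1.67e-10) and NGP by 0.95 (adjusted p = 2.05e-09) from the mean of the other 4.

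RPL36, also of the large subunit, was highest in BE(2)-C with an uneven replicate. The BE(2)-C arrays read 6443, 3447 and 3839, against 1592, 1830 and 2010 in NGP, 1431, 1728 and 1448 in KELLY, 2551, 3137 and 3080 in SK-N-AS, with 1186, 1422 and 1141 in SH-SY5Y. Its centred difference in BE(2)-C was 0.69 with the widest error among the named members (SE 0.14, limma, adjusted p = 1.89e-04). Without replicate 1 of BE(2)-C it was 0.44 (adjusted p = 0.00293). The other RPL36 probe sets gave 0.32 and 0.87 in BE(2)-C.

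The members furthest below the other lines in SK-N-AS were RPS3, RPL35A and RPL23A. RPS3, a small-subunit protein at the mRNA entry channel, had 17234, 16440 and 14081 in NGP, 21946, 22109 and 21479 in BE(2)-C, 11696, 12957 and 13605 in KELLY, 15173, 14524 and 15238 in SK-N-AS, with 10182, 8534 and 10838 in SH-SY5Y. On the deposited scale SK-N-AS was in the middle, although its arrays were the brightest, and on centred arrays its level was 4.998 ± 0.04, against 5.72 ± 0.11 to 5.90 ± 0.11 in the other lines. The difference was -0.81 (SE 0.05, limma, adjusted p = 3.85e-11). RPL23A, which lies at the exit of the peptide tunnel, differed by -0.70 (adjusted p = 6.34e-09). RPL26 (-0.66), RPS6 (-0.65), RPL17 (-0.64), RPL14 (-0.58) and RPL10A (-0.51) were also lower in SK-N-AS than in the other lines (adjusted p at most 1.33e-09), RPS6 being the ribosomal target of S6 kinases. Quantile normalization made these differences smaller, at -0.35 for RPS6, -0.34 for RPL17, -0.30 for RPL14 and -0.37 for RPL23A. Without _s_at and _x_at probe sets RPS6 was at -2.15, but its _at probe set lay above the filter in KELLY only. That value rests on the high KELLY intensities in the mean of the other 4 lines and does not show a lower RPS6 in SK-N-AS. RPS6, RPL17 and RPL14 were higher in both NGP and KELLY, by 0.31 and 0.29, 0.30 and 0.44, and 0.20 and 0.50.

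RPL8 and RPLP2 went against the median of SK-N-AS, and other members went further than their line's median. RPL8, a large-subunit protein near the peptidyl transferase centre, had 11139 ± 372 in NGP, 12011 ± 555 in BE(2)-C, 8852 ± 507 in KELLY, 21461 ± 1664 in SK-N-AS, with 8548 ± 744 in SH-SY5Y (SD, n = 3 each). It was higher in SK-N-AS on centred arrays (0.23, limma, adjusted p = 2.49e-05) and lower in BE(2)-C (-0.56, adjusted p = 3.60e-10). RPLP2, an acidic protein of the stalk that recruits translation factors, was higher in SK-N-AS (0.21) and SH-SY5Y (0.52) and lower in NGP (-0.27), BE(2)-C (-0.21) and KELLY (-0.26), with adjusted p of at most 3.02e-04 in each. RPS25, which serves some internal ribosome entry sites, was highest in SH-SY5Y (0.53, adjusted p = 9.57e-09) and lower in SK-N-AS (-0.45, adjusted p = 6.07e-08). RPS19, the most often mutated gene of Diamond-Blackfan anaemia, was higher in KELLY (0.53, adjusted p = 1.99e-08).

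**Figure D5:**
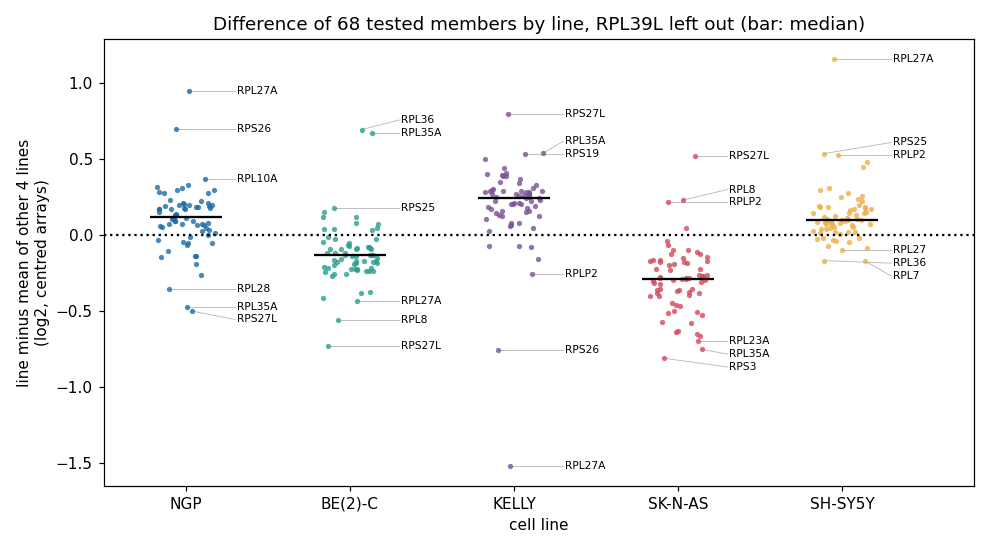
Centred log2 difference of each line from the mean of the other 4 (vertical axis) for 68 tested members, RPL39L left out, by line; points are members, bars medians, and the 3 highest and 3 lowest per line are named. Most points lie below 0 in SK-N-AS, where RPS3 reaches -0.81, and above 0 in KELLY, where RPS26 is at -0.76 and RPL27A, plotted at its fitted -1.52, is -0.48 with its KELLY value set to the filter.

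RPL5 and RPL11, which with 5S RNA form the particle that inhibits MDM2, differed in the same direction in each line. RPL5 was higher in NGP (0.30) and KELLY (0.39) and lower in BE(2)-C (-0.37) and SK-N-AS (-0.38), and in SH-SY5Y it differed by 0.07 (limma, adjusted p = 0.161, not passed). RPL11 was higher in NGP (0.18), KELLY (0.23) and SH-SY5Y (0.18) and lower in BE(2)-C (-0.41) and SK-N-AS (-0.18). RPL23, another MDM2-binding protein, was lower in SK-N-AS (-0.52, adjusted p = 5.92e-08) but higher in BE(2)-C (0.12, adjusted p = 0.0468). Of the 6 members listed for binding MDM2, 5 were lower and 1, RPS27L, higher in SK-N-AS. Of all tested members 85.5% were lower there, and of all tested genes 46.1%, and nothing particular to the list was tested.

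Of 17 genes listed for Diamond-Blackfan anaemia, a red cell aplasia caused by defects of single ribosomal proteins, 15 were on the arrays and tested. In SK-N-AS 15 of these were lower, with a median of -0.32, in KELLY 14 were higher and 1 lower (0.22), and in NGP 10 were higher and 2 lower (0.14). In BE(2)-C 2 were higher and 6 lower (-0.09), and in SH-SY5Y 5 were higher and 1 lower (0.06). These shares are to be read beside those of all tested members, of which 85.5% were lower in SK-N-AS, 81.2% higher in KELLY and 53.6% higher in NGP, and of all tested genes (46.1%, 41.1% and 38.5%), and nothing particular to the list was tested. Chromosome arms that often change copy number in neuroblastoma were listed too. On 11q RPS3 and RPS25 were both lower in SK-N-AS (median -0.63) and both higher in BE(2)-C (0.15). In NGP and in KELLY 1 was higher and 1 lower (0.10 and 0.07), and in SH-SY5Y 1 was higher and 0 lower (0.31). On 1p, RPL5, RPL11 and RPL22 were all 3 lower in BE(2)-C (median -0.37) and in SK-N-AS (-0.38) and higher in NGP (0.19) and KELLY (0.37), and 2 were higher in SH-SY5Y (0.15). On 17q 4 of 5 members were lower in SK-N-AS and 0 higher (median -0.40), 4 higher and 0 lower in NGP (0.17), 3 higher and 0 lower in KELLY (0.17), 1 higher and 1 lower in BE(2)-C (-0.03) and 2 higher and 1 lower in SH-SY5Y (0.10). The arm counts are to be read beside the shares of all tested members and, in brackets, of all tested genes. For SK-N-AS 85.5% (46.1%) were lower, and for BE(2)-C 60.9% (40.6%) were lower and 10.1% (36.7%) higher. The shares that were higher came to 81.2% (41.1%) for KELLY, 53.6% (38.5%) for NGP and 49.3% (37.9%) for SH-SY5Y. Nothing particular to an arm was tested. Copy number was not measured here.

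Against MYCN status, no tested ribosomal protein gene separated the lines at the call of at least 1 on the log2 scale. In all 6 pairs of an amplified with another line, 0 of 69 tested members were called with the same sign, on the deposited scale beside 1.03% of all tested genes and on centred arrays beside 1.12%. These shares are so small that 0 of 69 does not set the members apart from other genes. With the 5 line means as replicates, limma at an adjusted p under 0.05 called 0 members on the deposited scale (0.33% of all genes) and 0 on centred arrays (0% of all genes), and at an unadjusted p under 0.05 it gave 0 and 1 members, beside 5.08% and 6.18% of all genes. The 1 member was RPLP2, with a class difference of -0.49 (SE 0.13, adjusted p = 0.759 by limma), for which an exact permutation test, two-sided and on the 5 line means, gave p = 0.1, the smallest possible. Without a minimum size, the 5 line means of the classes did not overlap in 8 of 69 members on centred arrays (21.9% of all genes) and in 0 on the deposited scale (7.93%). RPLP2 (-0.49) and RPL8 (-0.31) were lower in the amplified lines, and the other 6 were higher, from RPL27 (0.19), RPS15 (0.26), RPL4 (0.29), RPL36 (0.32) and RPL24 (0.33) to RPS3 (0.48), with an exact p of 0.1 for RPL24, RPS15 and RPS3 too. The median class difference of the members was 0.09 on the deposited scale and 0.14 on centred arrays, against 0.00 and 0.05 over all tested genes. The centred median was 0.055 without _s_at and _x_at probe sets and -0.0039 after quantile normalization, which turned its direction. Centred class differences were above 0 in 55 members and below 0 in 14, and they ran from -1.57 in RPL39L to 0.49 in RPL35A. The RPL39L difference (SE 1.67) used the NGP values as they stand, and BE(2)-C, also amplified, was its highest line. The RPL35A difference includes the BE(2)-C value that rests on 1 probe set. SK-N-AS and SH-SY5Y, the lines without amplification, had centred medians of 5.52 and 5.86, which lie on either side of the BE(2)-C median of 5.64.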

How the data were processed

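Total RNA was measured on 15 arrays of 5 lines. The authors deposited a linear intensity for each probe set on each array, made with MAS5 per the submitters' processing notes. Its version, background correction and scaling were not given in the sources used here. The medians of the 100 ERCC probe sets ran from 4.69 to 4.92 on the log2 scale while the medians over all probe sets ran from 51.9 to 126 in intensity. For arrays, their number per line limits the precision.

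Of 49494 probe sets, 45277 named 1 gene in the annotation of the platform, and the one with the highest mean stood for each of 18244 genes. Genes were tested if their highest line mean reached the median of all values. limma 3.58.1 (R 4.3.3) was fitted to log2(intensity + 1) of 12721 genes with 1 mean per line and an intensity trend, and p-values were adjusted within each contrast. Alternatives were another pseudocount, a floor, no filter, averaging all probe sets of a gene, no _s_at and _x_at probe sets, quantile normalization, equal ERCC medians, centring on bright genes, no trend, a replicate block and leaving out each array. In simulated arrays with 200 of 12721 genes changed in NGP, the rule for marking a line recovered 99% of changes of 1.5 and marked 0 unchanged genes, and the adjusted p alone recovered 91% of changes of 0.5.

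The members, lists and rules were chosen with earlier results of these data known. Genes named were the L-type paralogues with partners, the 3 brightest and 3 dimmest members, the 10 with the largest SD of centred line means, the 3 highest and 3 lowest of each line, RPL5, RPL11, RPL23 and RPL22, and the 5 genes most like RPL39L. RPL22L1, RPL26, RPS19, RPL24, RPS15, RPL4, the RPL8 and RPLP2 values outside their extreme lines and the probe sets in the closing section were picked after their values were seen. A second limma fit took the 5 line means as replicates, with prior degrees of freedom of 69.8 on the deposited and 2.24 on the centred scale.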

Additional observations from a re-analysis of the deposited data

How the results depend on the processing

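Of 470 results recomputed under an alternative, 459 kept their direction and side of the threshold or stayed within the range set for counts. On the deposited scale, 49 members were called in at least 1 pair, and 29 without _s_at and _x_at probe sets (32 members then tested), 5 after quantile normalization and 5 when centred on bright genes. On centred arrays 5 were called, and 10 with the mean of all probe sets and 15 without _s_at and _x_at probe sets. Members marking a line on centred arrays numbered 1 of 69, beside 19.0% of all tested genes. They numbered 2 without the filter, with the mean of probe sets and after quantile normalization. Without _s_at and _x_at probe sets they numbered 6 of 32 (RPL39L, RPL31, RPS26, RPS28, RPS29 and RPS6). The share of all genes marking a line was not computed under these alternatives. The median class difference of 0.14 on centred arrays was 0.055 without _s_at and _x_at probe sets and -0.0039 after quantile normalization; the cause was not tested. Leaving out 1 array gave 40 to 57 members called in a pair as deposited, 5 centred, 1 marking a line and 0.11 to 0.15 for the class median. Separating the classes and the test on line means gave 0 members under every alternative run. The replicate block gave 49, 5 and 1 for the same counts. As every line has the same 3 numbers, the block cannot change a fitted difference, such as -4.99 for RPL39L in NGP, only its error. A check for pairing by sample number gave correlations of -0.23 to 0.23 (30 pairs, 5 of them over 0.1), which are not the correlations of whole arrays given earlier. No clear pairing by number was seen, but 3 samples per line cannot exclude one. Equal ERCC medians cannot change centred values, and the block was not run on line means. Across alternatives RPL39L in NGP lay between -5.16 and -3.65 and RPL27A in KELLY between -1.83 and -0.48, the smallest with a floor under low values.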

Other observations

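Some probe sets of the members that were not used for the gene differed more between lines than the one used. The following were picked after their values were seen, from 1 limma fit over 29563 probe sets on centred arrays. An RPS6 probe set of the _at kind read 1738, 1469 and 2059 in KELLY, against 27.3 ± 5.51 in NGP, 29.4 ± 6.53 in BE(2)-C, 30.1 ± 11.1 in SK-N-AS, with 18.9 ± 2.15 in SH-SY5Y (SD, n = 3 each). The other 4 lines were under the filter, and with their values set to its intensity of 80.6 KELLY was at least 30.7-fold above their mean on centred arrays, while the other 3 RPS6 probe sets gave 0.28 to 0.32 there. An RPL31 probe set of the _a_at kind read 72.9 ± 3.88 in BE(2)-C, against 318 ± 34.9 in NGP, 184 ± 17.4 in KELLY, 462 ± 20.6 in SK-N-AS, with 212 ± 5.36 in SH-SY5Y, a centred difference of -2.52 for BE(2)-C, where the RPL31 probe set used gave -0.20. An RPS28 probe set of the _at kind read 936 ± 16.8 in NGP and 290 ± 38.8 to 396 ± 29.4 elsewhere, a centred difference of 1.57, where the probe set used gave 0.11. An RPL28 probe set of the _a_at kind was lowest in KELLY (228 ± 14.1, centred difference -1.40) and highest in SK-N-AS (1796 ± 144, 0.92), where the 4 brightest RPL28 probe sets gave 0.27 to 0.31 and -0.29 to -0.26. For each of these genes 1 or a few probe sets of the _at or _a_at kind stood apart from the rest.

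For other members the dim probe sets moved the same way as the bright ones, and further. The 6 RPL14 probe sets gave -0.58 in SK-N-AS for the brightest and -0.81 to -1.11 for the others. The 3 RPL22 probe sets gave -0.58, -1.06 and -1.22 in SK-N-AS and 0.19, 0.55 and 1.23 in NGP. Of the 53 members with at least 2 probe sets above the filter, 42 had SK-N-AS below the mean of the other 4 lines in every one of them.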
